A study of Mus musculus with 6 samples.

Results

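Complex I, the NADH:ubiquinone oxidoreductase of the inner mitochondrial membrane, was followed through the genes whose symbols begin with Nduf. This rule found 42 genes among the 22611 of the expression table, and all of them are counted here. They comprise 36 nuclear genes for subunits of the complex, 4 Ndufaf genes for factors that assemble it, and the pair Ndufa4 and Ndufa4l2. NDUFA4 was once counted as a complex I subunit and was later assigned to cytochrome c oxidase, and NDUFA4L2 is a related protein known from cells short of oxygen. The name therefore runs a little beyond the complex, and it also leaves out the 7 subunits that mitochondrial DNA encodes, which are given separately below.

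Epithelium of the duodenum from 3 WT and 3 Esrra-/- mice (labelled ESRRAKO) was used for RNA-seq, with 1 library per mouse. The Esrra-/- mice carried a germline null allele and so lacked the gene in every tissue, and the WT mice were their littermates. Both groups were fed a high-fat diet, and the study used animals of both sexes. The sources used here give no age at collection, and do not say whether these animals carried the Villin-CreERT2 transgene kept in the same colony. The epithelium was lifted off the duodenum with EDTA, and the labels name no step that parted crypts from villi. Values are FPKM, the fragments assigned to a gene per kilobase of its transcript, scaled between libraries by the authors with DESeq2. In bulk epithelium, fewer cells of a type and less RNA per cell cannot be told apart.

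Complex I takes electrons from NADH, passes them along iron-sulphur clusters to ubiquinone and pumps protons across the inner membrane. Its peripheral arm holds the N module, which oxidises NADH, and the Q module, which reduces ubiquinone. Its membrane arm is built from the ND1, ND2, ND4 and ND5 modules, each around subunits encoded by mitochondrial DNA. In the absorptive cells of the duodenum, the respiratory chain supplies ATP for nutrient transport and reoxidises the NADH made when fatty acids are burnt. ESRRA, the estrogen-related receptor alpha, is a nuclear receptor known for its part in transcription of mitochondrial genes. It binds DNA at sites that hold the letters TCAAGGTCA, of which AAGGTCA is the core.

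The promoters of the Nduf genes were searched for these letters and for 4 others known from promoters of mitochondrial genes, because the members are listed here by name and the sequence is a property that the rule did not use. RefSeq promoters (GRCm38.p6), from 250 bases before to 50 bases after the start of transcription, were given for 37 of the 42 genes. Both strands were searched. An Nduf gene was counted once if any of its promoters held the letters, while the shares of all promoters and of tested genes count each promoter. The full TCAAGGTCA was in none of the 37 promoters, against 0.423% of all 32851 promoters. The core AAGGTCA was in 3 of 37 (8.11%), those of Ndufs5, Ndufb2 and Ndufb4, against 4.72% of all promoters. The 3 matches are shown with their surroundings because they are the only ones among the Nduf promoters. Each sequence below was found once, letter for letter, on its chromosome in mm9, and is printed 5′ to 3′ on the strand of the gene. Capitals mark the searched letters, or their reverse complement where the match lies on the other strand.

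Ndufs5, chr4:123395626-123395679, minus strand: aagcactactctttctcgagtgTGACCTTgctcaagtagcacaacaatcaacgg
Ndufb2, chr6:39542358-39542414, plus strand: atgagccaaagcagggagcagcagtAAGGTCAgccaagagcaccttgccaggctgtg
Ndufb4, chr16:37654493-37654519, minus strand: cctgagcctgAAGGTCAgactcgagag

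The windows of Ndufs5 and Ndufb2 lie upstream of their genes as GENCODE annotates them, and that of Ndufb4 lies in its annotated first exon. Among the other letters, AAGATGGCG, which YY1 binds, was in 5 of 37 promoters (13.5%), those of Ndufa9, Ndufc1, Ndufs4, Ndufs6 and Ndufs7, against 1.40% of all promoters. GCGCATGCG, a site of the nuclear respiratory factor NRF1, was in 3 of 37 promoters (8.11%), those of Ndufa8, Ndufa11 and Ndufaf4, against 1.75% of all. TGACGTCA, the cAMP response element, was in those of Ndufa10, Ndufa11 and Ndufb2 (8.11% against 1.79%). ACTTCCGG, which ETS family factors bind, was in 1, that of Ndufs3 (2.70% against 3.89%). Promoters of the genes tested below held AAGGTCA in 3.43%, AAGATGGCG in 3.19%, GCGCATGCG in 3.89%, TGACGTCA in 3.18%, ACTTCCGG in 8.28% and TCAAGGTCA in 0.320%. The sequences below carry matches for YY1, ETS factors and NRF1. In Ndufaf4 the letters of the NRF1 site also match on the other strand, shifted by 1 base, and the capitals mark the match on the strand of the gene. The last is the stretch before the RefSeq start of Ndufa5, which held none of the 6 searched strings in its promoter and had the most negative fold change of the Nduf genes.

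Ndufc1, chr3:51212837-51212865, minus strand: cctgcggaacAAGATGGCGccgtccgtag
Ndufs3, chr2:90744861-90744888, minus strand: gcacatttccACTTCCGGtccgtgccct
Ndufaf4, chr4:24825092-24825150, plus strand: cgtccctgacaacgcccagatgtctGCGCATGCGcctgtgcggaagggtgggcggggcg
Ndufa5, chr6:24477691-24477720, minus strand: agctgcgcaggcgcaaatctacctctccta

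The windows of Ndufc1, Ndufs3 and Ndufa5 lie in the first exon of the gene as GENCODE annotates it, and that of Ndufaf4 lies upstream of its gene. In Ndufc1 the match runs across the annotated start of the coding sequence. A match of letters is a description and not a site shown to be bound, and a promoter without one says only that these letters are not in this window. The 3 genes with AAGGTCA had log2 fold changes of -0.76 (Ndufs5), -0.57 (Ndufb2) and -0.63 (Ndufb4), within the range of the members without it.

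Esrra itself, at chr19:6985467-6996303 (mm9), was at 49.4, 73.5 and 104 FPKM in the WT libraries and at 10.4, 9.42 and 8.72 FPKM in the Esrra-/- libraries. The groups did not overlap, and every Esrra-/- library carried the low value its label calls for. The Esrra-/- mean of 9.50 ± 0.820 (SD, n = 3) was 12.6% of the WT mean of 75.5 ± 27.2 (SD, n = 3). The log2 fold change was -2.92 with a standard error of 0.26 (limma, adjusted p = 0.0215). The adjusted p was over 0.05 in 6 of 15 alternative fits, reaching 0.186, while the fold change kept its direction in all of them. With 3 libraries against 3, a two-sided exact permutation test cannot go below p = 0.1, which is the value that Esrra had.

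Transcripts of the Nduf genes had lower values in the Esrra-/- epithelium in every module of the complex. All 41 members that could be tested had a negative log2 fold change (Esrra-/- over WT, on the log2(FPKM + 0.1) scale), from -1.23 for Ndufa5 to -0.22 for Ndufaf1. Their median was -0.62, against 0.03 for all 10596 genes with a mean FPKM above 1. Genes were called where the unadjusted p was below 0.05 and the log2 fold change lay more than 0.58 from 0. By this rule 25 of 41 (61.0%) were called lower, where 3.28% of all genes tested were. None was called higher, where 1.35% of all genes tested were. Without the limit on the fold change, 28 of 41 were lower at an unadjusted p under 0.05, where 6.49% of all genes tested were. In 29 of 41 members each Esrra-/- library was lower than each WT library, which held for 9.14% of all genes tested. No member reached an adjusted p under 0.05 (limma, Benjamini-Hochberg over all genes tested), a limit that 0.0378% of all genes passed, and the adjusted p of the members ran from 0.158 to 0.739. The standard errors ran from 0.14 to 0.28 with a median of 0.20.

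**Figure D1:**
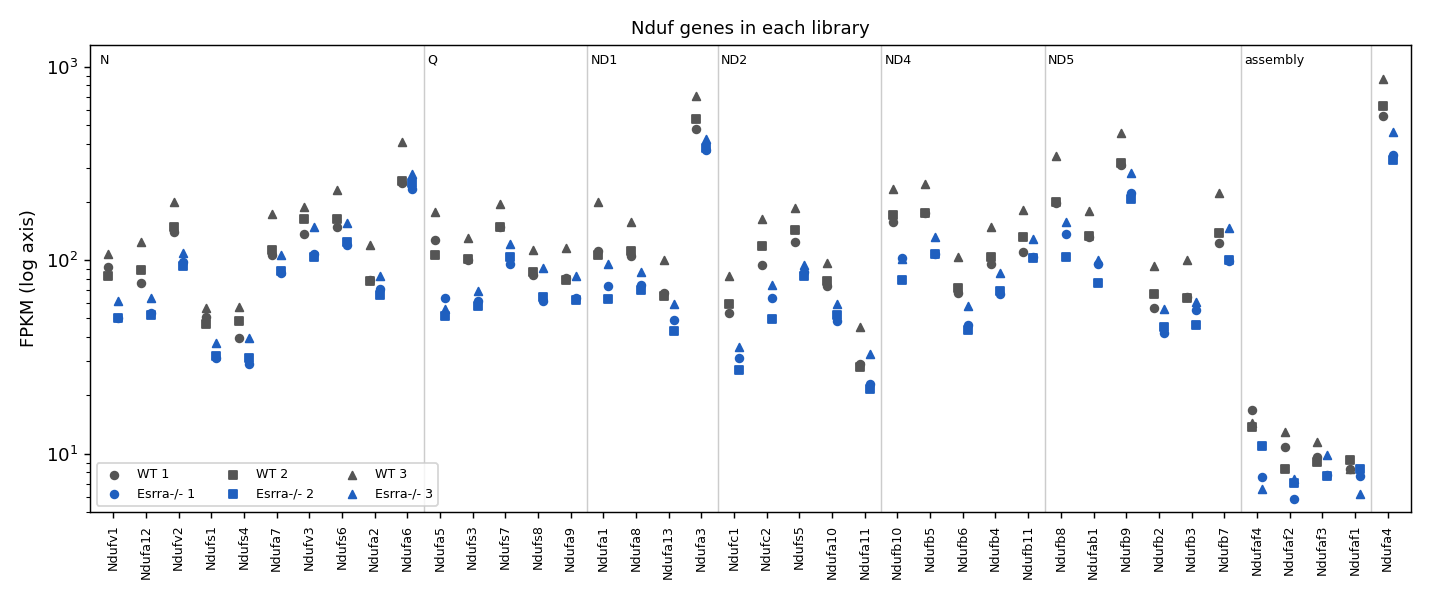
FPKM (log axis) of 40 tested Nduf genes in each of the 6 libraries, ordered by module and by fold change within it, with WT libraries in grey and Esrra-/- libraries in blue and the marker shape giving the replicate. Subunit genes sit well above the 4 assembly factors at the right, and grey points lie above blue ones in most columns.

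The count leaned on 1 library. WT replicate 3 had the highest value of the 6 libraries in 39 of 41 members. Without it, 12 of 41 members were called lower (3.76% of all genes tested), all 41 were still negative and the median was -0.49. All 12 were among the 25, and they included Ndufv1, Ndufs3, Ndufa5, Ndufc1, Ndufc2, Ndufs5, Ndufb5, Ndufb8, Ndufb10, Ndufaf4 and Ndufa4. The other 13 of the 25 lost their call without that library. With Esrra-/- replicate 1 left out, 17 of 41 were called lower (2.38% of all genes tested). Without Esrra-/- replicate 3, 31 of 41 were called lower (3.18% of all genes tested), the 25 and 6 more (Ndufa3, Ndufa11, Ndufb2, Ndufb7, Ndufs4 and Ndufv3). The size of the fold change shrank by over 1.5 times without WT replicate 3 in 12 members, of which Ndufa1 was the only one called lower over all libraries.

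Among the 7 nuclear core subunits, which carry the flavin and the iron-sulphur clusters, 6 were called lower (median log2 fold change -0.67), and 3 without WT replicate 3. Ndufv1, the subunit that binds the flavin and takes electrons from NADH, was at 92.2, 83.3 and 108 FPKM in WT and at 50.5, 50.5 and 61.5 FPKM in Esrra-/-. Its Esrra-/- mean was 57.3% of WT (log2 fold change -0.80, SE 0.16, limma adjusted p = 0.207). Its partner Ndufv2, with an iron-sulphur cluster of its own, was at 141, 149 and 201 FPKM against 97.9, 93.2 and 109 (-0.69). In both, the lowest WT library lay above the highest Esrra-/- library. Ndufs1, the largest subunit, was at 50.9, 46.9 and 56.8 FPKM against 31.3, 32.0 and 37.5 (-0.62, SE 0.14). It had the smallest standard error of the Nduf genes.

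Other core subunits belong to the Q module. Ndufs3 was at 100, 101 and 130 FPKM in WT against 61.5, 58 and 69.3 (57.0% of WT), and Ndufs7, which carries the last cluster before ubiquinone, at 149, 148 and 196 FPKM against 96.1, 104 and 121 (65.2% of WT). Neither overlapped between the genotypes, and both were called lower, although Ndufs7 lost the call without WT replicate 3, without Esrra-/- replicate 1 and in the libraries with Y-linked transcripts alone. Ndufs8, which holds the clusters that feed it, was the core subunit that was not called. It was at 84.1, 87.0 and 113 FPKM in WT and at 61.5, 64.9 and 90.6 FPKM in Esrra-/-, so that Esrra-/- replicate 3 lay above 2 WT libraries (-0.40, 95% interval -0.86 to 0.07). Ndufs8 and Ndufv1 lie near each other on chromosome 19, 3073 and 2973 kb from Esrra. Their intervals overlap, and the difference between their fold changes was not tested.

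Around this core, the accessory subunits of the N and Q modules spanned the range of fold changes. In the N module, 4 of 10 genes were called lower (Ndufv1, Ndufa12, Ndufv2 and Ndufs1), of which Ndufv1 alone kept the call without WT replicate 3, and the median was -0.50. Ndufa6, a small protein that docks the mitochondrial acyl carrier protein onto the arm, had the largest p of the module. It was at 251, 257 and 407 FPKM in WT and at 233, 250 and 279 FPKM in Esrra-/- (-0.23, 95% interval -0.76 to 0.30). Here WT replicates 1 and 2 lay within the Esrra-/- range, and WT replicate 3 stood alone above the rest. Without that library the log2 fold change was -0.00338, and without WT replicate 1 it was -0.35. Ndufa2, Ndufa7, Ndufv3, Ndufs4 and Ndufs6 lay between, with log2 fold changes from -0.54 to -0.31 and no call.

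In the Q module 4 of 6 genes were called lower, with a median of -0.64. Ndufa5, an accessory subunit of the peripheral arm, was at 127, 106 and 176 FPKM in WT and at 63.6, 51.6 and 55.9 FPKM in Esrra-/-. Its Esrra-/- mean of 57.0 ± 6.11 (SD, n = 3) was 41.8% of the WT mean of 136 ± 36.3 (SD, n = 3), with a log2 fold change of -1.23 and a standard error of 0.21 (limma adjusted p = 0.158). Every WT library exceeded every Esrra-/- library by a wide margin. Ndufa9, which binds NADPH and sits near the ubiquinone pocket, was at 81.1, 79.4 and 115 FPKM against 63.5, 62.6 and 83.0 (-0.39). Its highest Esrra-/- library was above its 2 lower WT libraries, and its fold change was -0.22 without WT replicate 3.

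**Figure D2:**
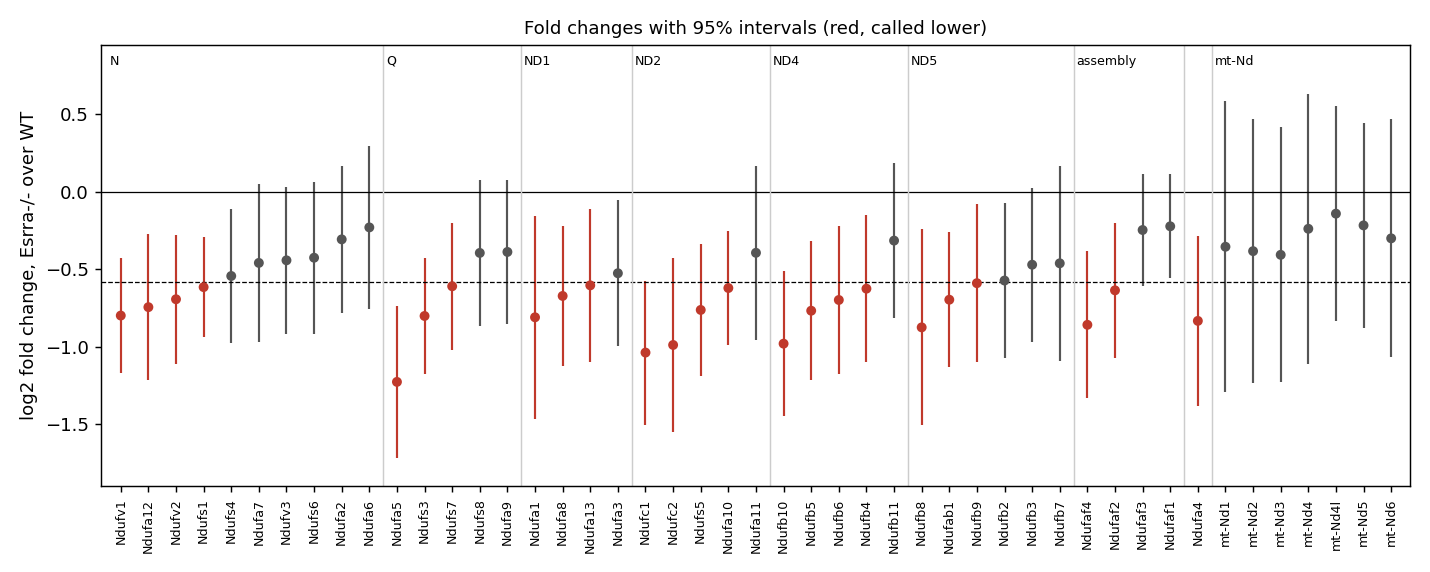
Log2 fold change, Esrra-/- over WT, with its 95% interval from limma for 40 tested Nduf genes by module and for the 7 mt-Nd genes, with the limit of -0.58 dashed. All points lie below 0, the 24 of these genes called lower are red, and the intervals of the mt-Nd genes are the widest and all cross 0.

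In the ND1 module of the membrane arm, 3 of 4 genes were called lower (Ndufa1, Ndufa8 and Ndufa13, median -0.64), and none of them without WT replicate 3. Ndufa8, held by disulphide bonds on the outer face of the inner membrane, was at 105, 112 and 157 FPKM in WT and at 74.8, 70.0 and 86.7 FPKM in Esrra-/- (61.9% of WT). Ndufa3, a small membrane subunit and the most abundant of the subunit transcripts, was at 475, 534 and 703 FPKM against 371, 379 and 424 (-0.53). Its groups did not overlap either, and it missed the fold limit only. Ndufa1 and Ndufb11 are the X-linked members.

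In the ND2 module 4 of 5 genes were called lower, with a median of -0.76. Ndufc1, a small single-span subunit, was at 53.0, 59.4 and 82.5 FPKM in WT and at 31.0, 27.0 and 35.6 FPKM in Esrra-/-, or 48.0% of WT (-1.04, SE 0.20, limma adjusted p = 0.195). Ndufc2, its partner in the membrane, had a mean of 49.7% of WT and Ndufs5 of 58.1%. The exception was Ndufa11, a subunit embedded in the membrane, at 29.0, 28.0 and 45.1 FPKM against 22.8, 21.5 and 32.7 (-0.39, 95% interval -0.95 to 0.17). Its groups overlapped through Esrra-/- replicate 3, without which it was called lower at -0.58, and without WT replicate 3 it was at -0.17.

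In the ND4 module 4 of 5 genes were called lower (median -0.70) and in the ND5 module 3 of 6 (median -0.58), and without WT replicate 3 there were 2 and 1. Ndufb10, which is stabilised by disulphide bonds facing the intermembrane space, was at 157, 171 and 233 FPKM in WT and at 102, 78.9 and 101 FPKM in Esrra-/-, or 50.2% of WT (-0.98, SE 0.20, limma adjusted p = 0.217). Ndufb11, in the same module, was at 110, 132 and 182 FPKM against 104, 103 and 129 (-0.32, 95% interval -0.82 to 0.19). Ndufb10 was thus apart between the genotypes and Ndufb11 was not. Ndufab1, the mitochondrial acyl carrier protein, which also serves fatty acid and lipoic acid synthesis, was at 132, 133 and 180 FPKM against 96.1, 76.5 and 100 (61.4% of WT). Ndufb7, a further subunit on the outer face, was at 123, 138 and 223 FPKM against 98.6, 100 and 147 (-0.46, 95% interval -1.09 to 0.17), with overlap. Without WT replicate 3 the fold changes of Ndufb7 and Ndufb11 were -0.20 and -0.12. Without WT replicate 1 that of Ndufb11 was -0.48, and without Esrra-/- replicate 3 Ndufb7 was called lower at -0.65.

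The ratio of a pair of genes in the same library does not depend on the scaling of that library. The pairs below join the smallest and the largest p among all Nduf genes and within the ND4 module, and were chosen after their values were seen, so that their ratios are a description. The FPKM of Ndufa5 per FPKM of Ndufa6 was 0.504, 0.412 and 0.433 in WT and 0.273, 0.207 and 0.20 in Esrra-/-. That of Ndufb10 per FPKM of Ndufb11 was 1.43, 1.29 and 1.28 in WT and 0.985, 0.769 and 0.785 in Esrra-/-. Neither ratio overlapped between the genotypes, and WT replicate 3 did not stand apart in them. As a description across the 41 genes, which share libraries and are not independent, the fold change had Pearson's r = -0.22 and Spearman's rho = -0.19 with the WT level.

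Assembly factors escort subunits and leave before the complex is finished. The 4 Ndufaf genes had WT means from 8.63 to 15 FPKM, below the lowest subunit, Ndufa11, at 34.0 FPKM. Of these 4, 2 were called lower (median -0.44), and 1 without WT replicate 3. Ndufaf4, which works on the Q module together with Ndufaf3, was at 16.9, 13.7 and 14.3 FPKM in WT and at 7.59, 11 and 6.56 FPKM in Esrra-/-, or 55.9% of WT (-0.86, SE 0.20, limma adjusted p = 0.279). Ndufaf2, a chaperone of the last steps in the N module, had a mean of 10.7 ± 2.32 FPKM (SD, n = 3) in WT and of 6.77 ± 0.811 FPKM (SD, n = 3) in Esrra-/-, and its call was lost in 4 of 15 alternatives, namely without WT replicate 3, without Esrra-/- replicate 1, in the libraries with Y-linked transcripts alone and with a pseudocount of 1. Ndufaf1, a factor for the membrane arm, was at 8.36, 9.23 and 8.31 FPKM against 7.71, 8.35 and 6.22 (-0.22, 95% interval -0.56 to 0.11), and without Esrra-/- replicate 3 its fold change was -0.10. Ndufaf3 was close to it at -0.25.

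A further 16 assembly factors do not carry the name Nduf in the table, some only because it uses older symbols. Of these, 2 were called lower (3.28% of all genes tested were), 5 had an unadjusted p under 0.05 (10.8% of all genes tested did), 13 had a negative and 3 a positive log2 fold change (45.7% of all genes tested were negative), and the median was -0.26. Ecsit, which joins Ndufaf1 and Acad9 in assembling the membrane arm and also has a role in innate immune signalling, was at 21.4, 20.5 and 24.0 FPKM in WT and at 11.8, 12.4 and 12.5 FPKM in Esrra-/-. Its log2 fold change of -0.84 had the smallest standard error among these factors (0.12, limma adjusted p = 0.0826), and its groups lay far apart. The other members of that assembly complex did not pass the test. Acad9 was at 5.74, 5.30 and 5.54 FPKM against 5.72, 3.83 and 4.43 (-0.26, with -0.41 without Esrra-/- replicate 1 and -0.13 without Esrra-/- replicate 2), and Tmem126b was at 7.43, 7.85 and 7.79 FPKM against 8.30, 7.17 and 7.24. Tmem126b had a log2 fold change of -0.03 with a 95% interval from -0.30 to 0.25.

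The second factor called lower was Ndufaf5 (listed as 2310003L22Rik), which hydroxylates an arginine of NDUFS7, at 6.05, 6.08 and 5.68 FPKM in WT and at 3.99, 3.18 and 4.46 FPKM in Esrra-/- (-0.61, SE 0.16). It lost the call with a pseudocount of 1 and without Esrra-/- replicate 2. Ndufaf6 (2310030N02Rik) was at 4.15, 3.56 and 4.14 FPKM against 2.49, 3.15 and 2.51 (-0.53), and Ndufaf7 (2410091C18Rik) was at 5.10, 3.47 and 4.58 against 3.93, 3.39 and 3.00 (-0.33). Ndufaf6 was apart between the genotypes, and Ndufaf7 overlapped. Dmac2 (Atp5sl), a membrane arm factor, was at 26.5, 27.8 and 35.5 FPKM against 18.7, 21.2 and 24.2 (-0.48), and Tmem126a was at 32.3, 31.1 and 35.4 FPKM against 21.7, 25 and 26.4 (-0.44). These last 2 were also apart between the genotypes but missed the fold limit. Foxred1, Tmem70 and Tmem186 were not called, at -0.26, -0.26 and -0.18. With 1 library left out Tmem70 ran from -0.33 to -0.17, Foxred1 from -0.40 to -0.07 (the latter without WT replicate 1), and Tmem186 from -0.25 to -0.05 (the latter without Esrra-/- replicate 3).

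Values close to 0 were found for Dmac1 (3110001D03Rik, -0.06), Ndufaf8 (1810043H04Rik, -0.06), Lyrm2 (0.04) and Timmdc1 (4930455C21Rik). Timmdc1, a membrane anchor for the early intermediates, was at 11.8, 10.1 and 14.3 FPKM in WT and at 12.4, 11.7 and 11.8 FPKM in Esrra-/-, with a 95% interval of the log2 fold change from -0.35 to 0.35. Nubpl, which delivers iron-sulphur clusters to the complex, was the most positive, at 1.55, 0.971 and 2.42 FPKM against 1.72, 2.45 and 3.00 (0.56, 95% interval -0.28 to 1.40). Its groups overlapped and its level was near the limit of 1 FPKM for testing. Its fold change was 0.25 without WT replicate 2 and 0.87 without WT replicate 3, where it was called higher.

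Of the pair outside the complex, Ndufa4 was the most abundant of all Nduf transcripts and was called lower. It was at 558, 626 and 866 FPKM in WT and at 349, 331 and 462 FPKM in Esrra-/-, or 55.7% of WT (-0.83, SE 0.24, limma adjusted p = 0.326). Ndufa4l2 was barely present, at 0.0667, 0 and 0 FPKM in WT and at 0.0703, 0.0651 and 0.161 FPKM in Esrra-/-. It did not reach a mean of 1 FPKM, was not tested, and shares exon positions with Shmt2 on the opposite strand.

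The 7 ND subunits of mitochondrial DNA form the proton pumps of the membrane arm and are transcribed inside the mitochondrion. None of them was called, all 7 log2 fold changes were negative (from -0.41 to -0.14, median -0.30), and those of mt-Nd5 and mt-Nd6 turned positive with quantile normalization, at 0.0535 and 0.0561. Without WT replicate 3 the 7 fold changes shrank to between -0.15 and -0.00164, with a median of -0.08. The median was -0.49 without WT replicate 1 and -0.43 without Esrra-/- replicate 3. In WT, mt-Nd1 was at 15221, 17872 and 28083 FPKM, and in Esrra-/- at 13959, 13152 and 19873 FPKM. Esrra-/- replicate 3 thus lay above 2 of the 3 WT libraries. The most negative fold change was that of mt-Nd3, at 5310, 6425 and 10047 FPKM against 4948, 4388 and 6763, and the one nearest to 0 was that of mt-Nd4l, at 5050, 5953 and 7335 FPKM against 4830, 5054 and 6729. WT replicate 3 was the highest library in each of these 3 genes. The means of the 7 were 73.9% to 90.6% of WT, with standard errors from 0.28 to 0.40 against at most 0.28 in the Nduf genes. Summed over the 7, mt-Nd FPKM was 68757 ± 20568 in WT and 54983 ± 11486 in Esrra-/- (SD, n = 3 each, two-sided exact permutation p = 0.5).

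Because nuclear and mitochondrial subunits share the complex, their sums were set side by side in each library. The 36 nuclear subunit genes together were at 4467, 4713 and 6659 FPKM in WT and at 3240.2, 3118 and 3907 FPKM in Esrra-/-, or 64.8% of WT. Per 100 FPKM of mt-Nd transcripts there were 8.52, 7.60 and 7.25 FPKM of nuclear subunit transcripts in WT and 6.50, 6.64 and 5.73 FPKM in Esrra-/-. The genotypes did not overlap in this ratio, with 7.79 ± 0.656 in WT and 6.29 ± 0.487 in Esrra-/- (SD, n = 3 each), and WT replicate 3 was the lowest of its group rather than the highest. The two-sided exact permutation test gave p = 0.1 for the sum and for the ratio, the smallest it can give.

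**Figure D3:**
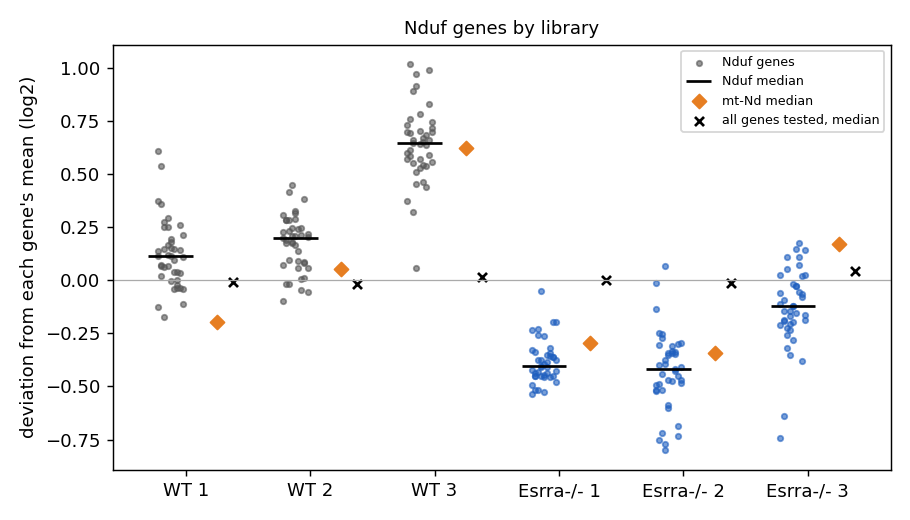
Deviation of each of the 41 tested Nduf genes from its own mean over the 6 libraries (log2), with bars for their median, orange diamonds for the median of the mt-Nd genes and crosses for all genes tested. The Nduf medians are 0.11, 0.20 and 0.65 in WT and -0.40, -0.42 and -0.12 in Esrra-/-, while those of all genes stay near 0.

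The subunits also varied together within each genotype. In WT replicate 3 the 36 subunit genes were at a median of 1.46 times the mean of the other WT libraries (range 1.16 to 1.83), and in Esrra-/- replicate 3 at 1.23 times the mean of the other Esrra-/- libraries (range 0.970 to 1.48). The mt-Nd genes had medians of 1.63 and 1.45 times in the same libraries. The 4 Ndufaf genes were at 1.09 and 0.959 times, the other 16 assembly factors at 1.07 and 1.00 times, and all genes tested at 1.01 and 1.03 times. Subunits of both genomes thus had higher FPKM in the libraries of replicate 3, and the medians of the assembly factors were near the level of all genes. Ndufaf4 was even lowest in Esrra-/- replicate 3. The total FPKM of a library was also largest in replicate 3 of each genotype. It was 738816, 818406 and 999902 in WT and 745580, 707094 and 901171 in Esrra-/-. How far the higher subunit values go with these totals was not tested.

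The libraries of replicate 3 also differed from the rest in other ways. The summed FPKM of Y-linked genes was between 27.3 and 46.7 in replicates 1 and 2 of both genotypes, but 0.0487 in WT replicate 3 and 0.222 in Esrra-/- replicate 3. Within the libraries with Y-linked transcripts (2 against 2), all 41 Nduf genes had a negative log2 fold change, from -1.01 to -0.07 (median -0.57). In the pair without them (1 against 1, with no test), all 41 were negative as well, from -1.66 to -0.21 (median -0.74). The median of all genes tested was 0.01 and 0.04. The direction was thus shared by both kinds of library, and Ndufa5 had the most negative value in each.

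**Figure D4:**
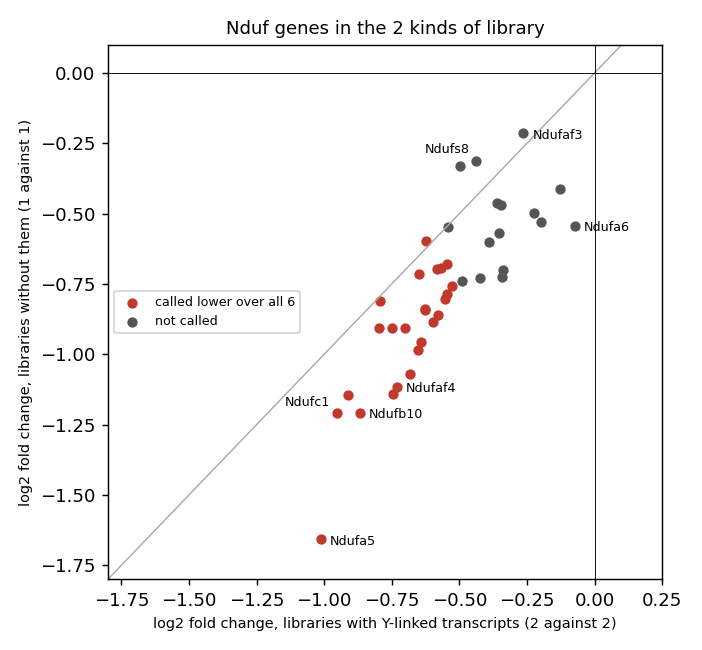
Log2 fold change of the 41 tested Nduf genes between the 4 libraries with Y-linked transcripts (horizontal axis) and between the pair without them (vertical axis), with the line of equality in grey. Every gene lies below 0 on both axes, most lie below the line, and Ndufa5 is the lowest on both.

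Markers of the cell types of the epithelium were set beside these values. The 12 markers of villus enterocytes, the absorptive cells, summed to between 40816 and 66130 FPKM in WT and between 50503 and 70334 FPKM in Esrra-/-. None of the 12 was called, and 1 of 12 had a negative fold change. All 9 crypt markers were negative (median -0.61, 1 called), with sums of 161 to 289 FPKM in WT against 71.1 to 214, and 5 of 9 Paneth markers were called lower, with sums of 11526 to 28815 FPKM in WT against 2160 to 11523. Replicate 3 had the lowest crypt and Paneth sums of its genotype and the highest enterocyte sums. Immune markers summed to 1318, 1290 and 222 FPKM in WT and to 662, 1276 and 1930.1 FPKM in Esrra-/-, so that replicate 3 was the lowest of the WT libraries and the highest of the Esrra-/- libraries. Cd74, an antigen presentation gene, made up most of these sums, and the other 7 immune markers summed to 29.5, 54.8 and 29.9 FPKM in WT and to 27.8, 52.1 and 47.4 FPKM in Esrra-/-. Mesenchymal markers summed to at most 5.90 FPKM in any library. The part of cell composition in the Nduf values was not tested.

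For comparison, 25 of the 41 nuclear genes listed for complexes II to V were called lower (median log2 fold change -0.60), and over the 15 alternatives the count ran from 6 to 35. The 6 were called with Esrra-/- replicate 1 left out and the 35 with Esrra-/- replicate 3 left out, where 17 and 31 Nduf genes were called. Without WT replicate 3 there were 8 against 12 Nduf genes (3.76% of all genes tested), and with quantile normalization 15 against 26 (3.06% of all genes tested). No difference between the lists was tested. Some members share reads with neighbours. In the mm9 annotation 10 Nduf genes have an exon that overlaps an exon of another gene, and the library kit does not mark strand, so reads in those stretches cannot be assigned with certainty. Of the 9 such genes tested 6 were called lower (Ndufs1, Ndufs3, Ndufa13, Ndufb5, Ndufb6 and Ndufb8), and of the other 32 tested 19 were. RefSeq also lists a gene Ndufb4b beside Ndufb4, with which its reads could be shared.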

How the data were processed

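Reads from total RNA of 6 duodenal epithelium libraries (Illumina TruSeq v2, paired-end) were quality checked with FastQC 0.11.3, quantified against mm9 with kallisto 2.1.0 and turned into FPKM with DESeq2 2.2.1, by the authors' account. The authors deposited FPKM for 22611 genes. The annotation is not given in the sources used here. A second deposited table holds the authors' own comparison (fold changes and p-values) and was not used.

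Here, log2(FPKM + 0.1) of the 10596 genes with a mean FPKM above 1 was fitted with limma 3.58.1 (R 4.3.3; lmFit, eBayes with a trend, no covariate), with Benjamini-Hochberg adjustment over all of them, after a test on simulated data. The call needed an unadjusted p below 0.05 and a log2 fold change more than 0.58 from 0. Single values were also given a two-sided exact permutation test over the 6 libraries. Fold changes of low genes are understated by the pseudocount. FPKM do not give the depth, so no counting interval was computed. Relative scaling, read from the steps between low values, ran from 0.829 to 1.03. The limma p-values set the difference between the groups against the spread between the 3 libraries of a group. That spread was drawn toward the spread of other genes of similar level.

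Members were all symbols that begin with Nduf. The members and lists were chosen with earlier results of these data known. One member is counted throughout but not reported here by name. Values in every library are given for Esrra, the other core subunits, the smallest and largest p in each module, members with a positive fold change (there were none among the 41 tested), genes under the FPKM filter, Ndufa4 and Ndufa4l2. The mt-Nd genes and the other assembly factors were named from lists, several of them by fold change or range only. Positions are from GENCODE M1 on mm9, in which Ndufb8 has overlapping gene models and no single position is given. Marker lists for goblet (7212 to 7609 FPKM in Esrra-/- against 6176 to 7242 in WT), enteroendocrine (360 to 507 against 344 to 640), tuft (8.83 to 13.2 against 9.84 to 14.8) and pancreatic acinar cells (3.53 to 3.56 against 2.44 to 3.62, with 8 of 11 genes at 0 in all libraries) were summed as well.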

Additional observations from a re-analysis of the deposited data

How the results depend on the processing

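The 41 Nduf genes above the filter were negative under all 15 alternative fits. Over 615 pairs of a gene and an alternative, 568 kept their side of the threshold, 33 lost the call, 14 gained it and none changed sign. Leaving out 1 library in turn gave 12 (without WT replicate 3, 3.76% of all genes tested) to 31 (without Esrra-/- replicate 3, 3.18%) Nduf genes called lower, against 25, and moved their median from -0.70 to -0.49 and the fold change of Esrra from -3.19 to -2.66. The adjusted p of Esrra was over 0.05 in 6 of the 15 fits (limma, range over all 15 from 0.0212 to 0.186). With 1 library left out, no Nduf gene was called higher or reached an adjusted p under 0.05. The libraries with Y-linked transcripts alone gave 19 Nduf genes called lower, where 3.28% of all genes tested were. The 12 genes called without WT replicate 3 were called under all 15 alternatives.

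Quantile normalization gave 6 Nduf genes with an adjusted p under 0.05 (Ndufa5, Ndufb5, Ndufb10, Ndufc1, Ndufs3 and Ndufv1), where 0.302% of all genes tested passed, and a covariate for libraries lacking Y-linked transcripts also gave 6, of which Ndufb5, Ndufc1, Ndufs3 and Ndufv1 were shared and where 0.491% of all genes passed. With no filter on low values 1 Nduf gene, Ndufa4l2, was called higher, and over all genes 528 were called lower and 277 higher, against 348 and 143. Over all genes, 688 were lower with no limit on the fold change, 252 to 537 were called lower (most without Esrra-/- replicate 2) and 146 to 214 higher with 1 library left out. The causes were not tested.

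The labels do not say whether the replicate numbers pair the libraries. Deviations of same-numbered libraries correlated at 0.01, 0.26 and 0.38. WT replicates 2 and 3 correlated best with the Esrra-/- library of the same number, and WT replicate 1 with Esrra-/- replicate 2 (0.18). With the replicate number as a block 25 Nduf genes were called lower, where 4.16% of all genes tested were. In that fit 39 had an unadjusted p under 0.05, where 11.3% of all genes were lower at that p. The smallest adjusted p of an Nduf gene was 0.0709 (limma). Over all genes, 21.6% had an unadjusted p under 0.05 with the block, against 10.8% without it (limma).

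Sign changes were seen only among genes without the name Nduf. Quantile normalization gave 0.0535 for mt-Nd5 and 0.0561 for mt-Nd6. Timmdc1 (4930455C21Rik) was at -0.000857 with a pseudocount of 1, -0.00939 with quantile normalization, -0.0151 with median-ratio scaling and -0.119 to 0.127 with 1 library left out. In the libraries with Y-linked transcripts, Tmem126b was at 0.0142, Dmac1 (3110001D03Rik) at 0.0792 and Lyrm2 at -0.0197. With 1 library left out, Tmem126b ran from -0.0924 to 0.0113, Dmac1 from -0.132 to 0.0504, Lyrm2 from -0.0711 to 0.229 and Ndufaf8 (1810043H04Rik) from -0.134 to 0.0410. FPKM without fragment counts limit what can be said of genes near 1 FPKM, such as Nubpl.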
